A study of Homo sapiens with 4 samples.

Results

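Nonsense-mediated mRNA decay (NMD) is the surveillance pathway that removes transcripts with a premature stop codon, and it also sets the level of a share of normal transcripts. Expression of its core factors was measured in SeAx, a cell line of Sézary syndrome, a leukemic cutaneous T-cell lymphoma (CTCL). The factors are the genes SMG1, SMG5, SMG6, SMG8, SMG9, UPF1, UPF2, UPF3A and UPF3B, and a probe set was taken when the platform annotation gave it 1 of these 9 symbols and no other. This rule found 14 of the 49293 probe sets, for 7 genes of 18244. UPF3A and UPF3B had no such probe set in the annotation used here and are not analysed. The family was taken up because SMG6 had been chosen by its difference between the conditions in these same arrays, with the question of whether it moved alone. The differences of the members are therefore described here and not tested, and they support nothing.

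The series holds 4 Affymetrix PrimeView arrays, 2 of miR-124 SeAx cells and 2 of control SeAx cells. By the study's methods, cells received a lentiviral vector encoding miR-124, a microRNA whose part in CTCL the study examined, and were selected in puromycin. The labels of the control arrays give the word control alone, and the study describes its controls as non-transduced, so that the vector, the selection and miR-124 cannot be told apart in this comparison. No source used here gives a clone, a passage or a time after transduction, and whether 2 arrays with 1 label stand for 2 cultures or 1 is not stated. The intervals given here therefore measure the spread between these arrays, which may be technical. Each value is a log2 signal on the scale of robust multi-array averaging (RMA), and the array medians lay between 7.27 and 7.31.

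The labelled cell type was checked against T cell markers. CD3D, CD3G and CD2 were bright, with means of 12.06, 11.92 and 10.86 in miR-124 cells and 12.00, 11.79 and 10.90 in control cells. CD3E, CD5, CD28, CD4 and LCK were dimmer in both conditions, with means of 5.58 to 6.53 in miR-124 cells and 5.33 to 6.49 in control cells. The array's 23 background probe sets averaged between 5.18 and 5.23 on each array, below all of these means. Among markers of other cells, KRT1, KRT5 and KRT14 of keratinocytes had means of 4.60 to 5.56 in miR-124 cells and 4.58 to 5.65 in control cells. LYZ of myeloid cells lay at 3.83 in miR-124 cells and 3.94 in control cells, whereas the myeloid receptor gene CSF1R lay at 10.14 in miR-124 cells and 10.07 in control cells. The leukocyte gene PTPRC lay at 7.27 in miR-124 cells and 7.90 in control cells, and the B cell genes CD79A and MS4A1 at 7.38 and 5.32 in miR-124 cells and 7.44 and 5.50 in control cells. None of these markers differed past the study's threshold, which is an unadjusted p under 0.05 with a fold change above 1.5. Shares past this threshold are those of the fit made here, in which far fewer genes passed than the study reports. The reason was not tested.

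In NMD, a ribosome that stops early recruits UPF1, an RNA helicase, through the release factors. The kinase SMG1, held in check by SMG8 and SMG9, phosphorylates UPF1 once UPF2 and the UPF3 proteins connect it to an exon junction complex left downstream on the RNA. Phosphorylated UPF1 binds SMG6, an endonuclease that cuts the transcript near the stop codon, or SMG5, which serves to bring in decapping and deadenylation enzymes. Transcripts of several of these factors are themselves substrates of the pathway in human cells.

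The members differ in their start regions, and the stretches printed here are those with a MYC-type E-box, shown because MYC target genes are among the sets the study looked at. RefSeq start windows on GRCh38.p14 were found for 8 of the 9 members, 15 windows in all, of which SMG6 had 4, and SMG8 was not among them. The 250 bases before each start were searched on both strands for CACGTG, the E-box, and for TTCNNNGAA, the core of a STAT site. The E-box letters were in 2 of the 15 member windows and in 6.34% of all 35116 windows, and the STAT letters were in 0 of the 15 and in 6.57% of all. The E-box stretches are given 5′ to 3′ on the gene's strand, with the motif in capitals.
SMG6, chr17:2266214-2266243, minus strand, motif beginning 46 bases before an internal start: cactttccacccCACGTGacctttagttac
UPF2, chr10:12043390-12043419, minus strand, motif beginning 237 bases before the start: gcccaggagaatCACGTGgccgggcttgtc
A match of letters is a description of the window and not a site. The motif stood before 1 member whose signal was higher in miR-124 cells on both probe sets, SMG6, and before 1 whose brighter probe sets overlapped between the conditions, UPF2. The SMG6 windows ranged in GC content between 32% and 79.6%, with 1 to 39 CpG dinucleotides, and the E-box window held 48.4% GC and 7 CpG.

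SMG6, the endonuclease, was higher in both miR-124 arrays than in both control arrays on each of its probe sets. On the brighter one, matched to the RefSeq transcript of the gene, the signal was 9.42 and 9.44 in the miR-124 arrays, against 8.91 and 8.54 in the control arrays. The miR-124 arrays lay close together, and the control arrays lay 0.37 apart. The difference was 0.70 on the log2 scale (standard error 0.15), or 1.63-fold. On the other probe set the signal was 9.45 and 9.51 in the miR-124 arrays, against 8.68 and 8.59 in the control arrays. Here both pairs of arrays were close, and the difference was 0.84 (standard error 0.09), or 1.79-fold. Within the arrays numbered 1, SMG6 was higher in miR-124 cells by 0.51 and 0.77 on the brighter and the dimmer probe set, and within those numbered 2 by 0.90 and 0.92. Of the 49293 probe sets, 0.0669% had a difference at least as large as that of the brighter SMG6 probe set and 0.0264% at least as large as that of the dimmer. Of 11825 genes with more than 1 probe set, 4 had every probe set past the threshold in 1 direction. They were SMG6, CYP1A1 and MAP3K14, all higher, and OMD, which was lower. Each of the 4 has 2 probe sets, as 4794 of the genes do. Because SMG6 was chosen for its difference in these same arrays, these shares and counts restate that choice and support nothing.

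**Figure D1:**
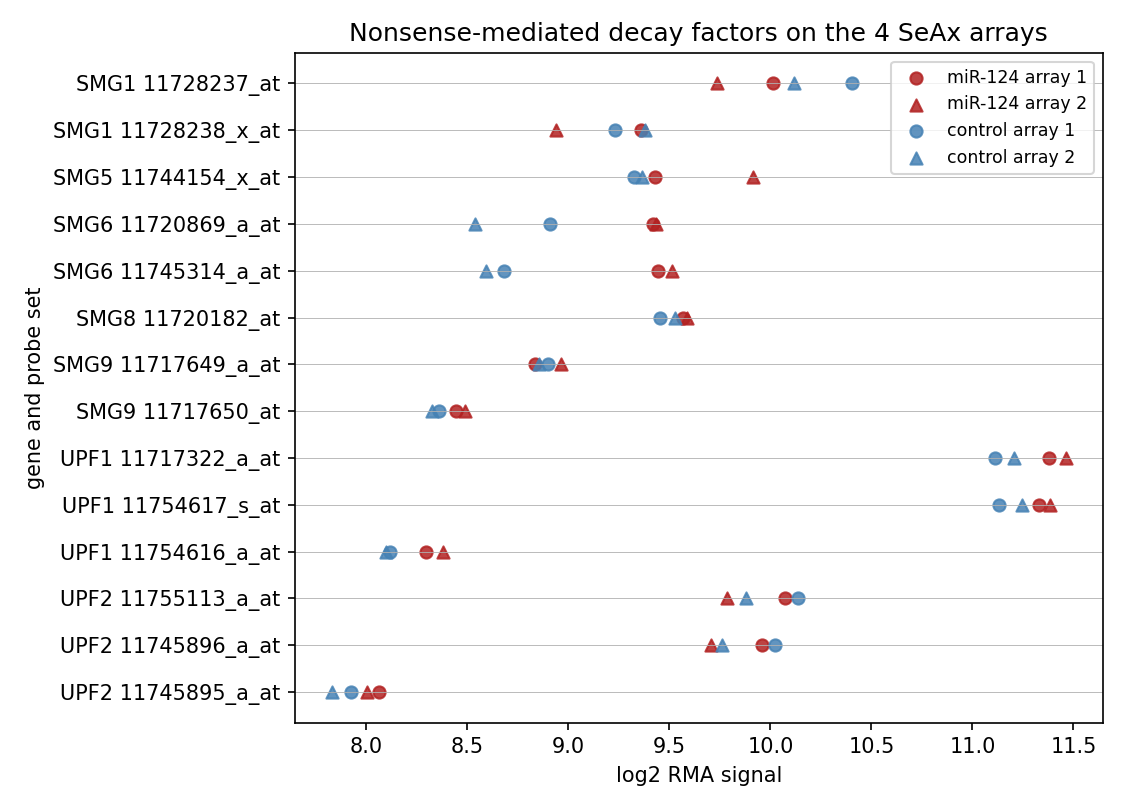
Log2 RMA signal (x axis) of the 14 member probe sets (y axis) on each of the 4 arrays, miR-124 in red and control in blue, circles for arrays numbered 1 and triangles for those numbered 2. On both SMG6 rows the miR-124 points sit at 9.42 to 9.51 and the control points at 8.54 to 8.91, while SMG1 is shifted the other way on its brighter row.

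SMG5, the relative of SMG6 that links UPF1 to decapping and deadenylation, was at 9.43 and 9.92 in the miR-124 arrays, against 9.32 and 9.36 in the control arrays. The arrays of the conditions did not overlap, but the miR-124 arrays lay 0.49 apart and the second of them carried most of the difference. The difference was 0.33 (95% interval -0.15 to 0.81), and within the array numbers it was 0.10 and 0.55. SMG5 was measured by 1 probe set, whose identifier ends in x, the mark of the array maker for probes that may also bind other transcripts.

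UPF1, the helicase at the centre of the pathway, was higher in both miR-124 arrays on each of its 3 probe sets, by a small amount. The brightest gave 11.38 and 11.46 in the miR-124 arrays, against 11.11 and 11.21 in the control arrays, a difference of 0.26 (95% interval 0.02 to 0.50) or 1.20-fold. The probe set of nearly the same brightness gave 11.33 and 11.38 in the miR-124 arrays, against 11.13 and 11.25 in the control arrays, a difference of 0.17 (95% interval -0.08 to 0.41). The dimmest gave 8.30 and 8.38 in the miR-124 arrays, against 8.12 and 8.10 in the control arrays, a difference of 0.23 (95% interval 0.0025 to 0.46). The 3 probe sets thus ran the same way in both array numbers, with differences of 0.14 to 0.28. Each interval is that of a single probe set, unadjusted, and all 3 ended below a fold change of 1.5.

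UPF2, the adaptor between UPF1 and the UPF3 proteins, had overlapping arrays on its brighter probe sets. The brightest gave 10.07 and 9.78 in the miR-124 arrays, against 10.14 and 9.88 in the control arrays, a difference of -0.08 (95% interval -0.48 to 0.32). The next gave 9.96 and 9.71 in the miR-124 arrays, against 10.02 and 9.76 in the control arrays, a difference of -0.06 (95% interval -0.45 to 0.33). In both conditions these probe sets were lower on the array numbered 2, by 0.25 to 0.29, a gap larger than the difference between the conditions. The dimmest probe set, at 8.07 and 8.00 in the miR-124 arrays and 7.92 and 7.83 in the control arrays, differed the other way by 0.16 (95% interval -0.08 to 0.39).

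SMG1, the kinase that phosphorylates UPF1, was the member whose brightest probe set differed most in the other direction. Its brighter probe set gave 10.02 and 9.73 in the miR-124 arrays, against 10.40 and 10.11 in the control arrays, with no overlap. The difference was -0.38 (95% interval -0.80 to 0.03), and it was -0.39 and -0.38 within the array numbers, while both conditions were lower on the array numbered 2 by 0.28 and 0.29. The other probe set gave 9.36 and 8.94 in the miR-124 arrays, against 9.23 and 9.38 in the control arrays, and these overlapped, with a difference of -0.16 (95% interval -0.60 to 0.29). SMG1 has several pseudogene copies on its chromosome, the second probe set carries the x mark, and 1 further probe set names SMG1 together with its pseudogenes and was left out, so that the SMG1 signal may in part be that of the copies.

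SMG8 and SMG9, which form a complex with SMG1 and restrain its kinase activity in human cells, differed little. SMG8 was at 9.57 and 9.59 in the miR-124 arrays, against 9.45 and 9.53 in the control arrays, a difference of 0.09 (95% interval -0.14 to 0.31). SMG9 was at 8.83 and 8.96 in the miR-124 arrays, against 8.90 and 8.85 in the control arrays on its brighter probe set, which overlapped, with a difference of 0.02 (95% interval -0.23 to 0.27). Its dimmer probe set was at 8.44 and 8.49 in the miR-124 arrays, against 8.36 and 8.33 in the control arrays, a difference of 0.12 (95% interval -0.10 to 0.34).

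**Figure D2:**
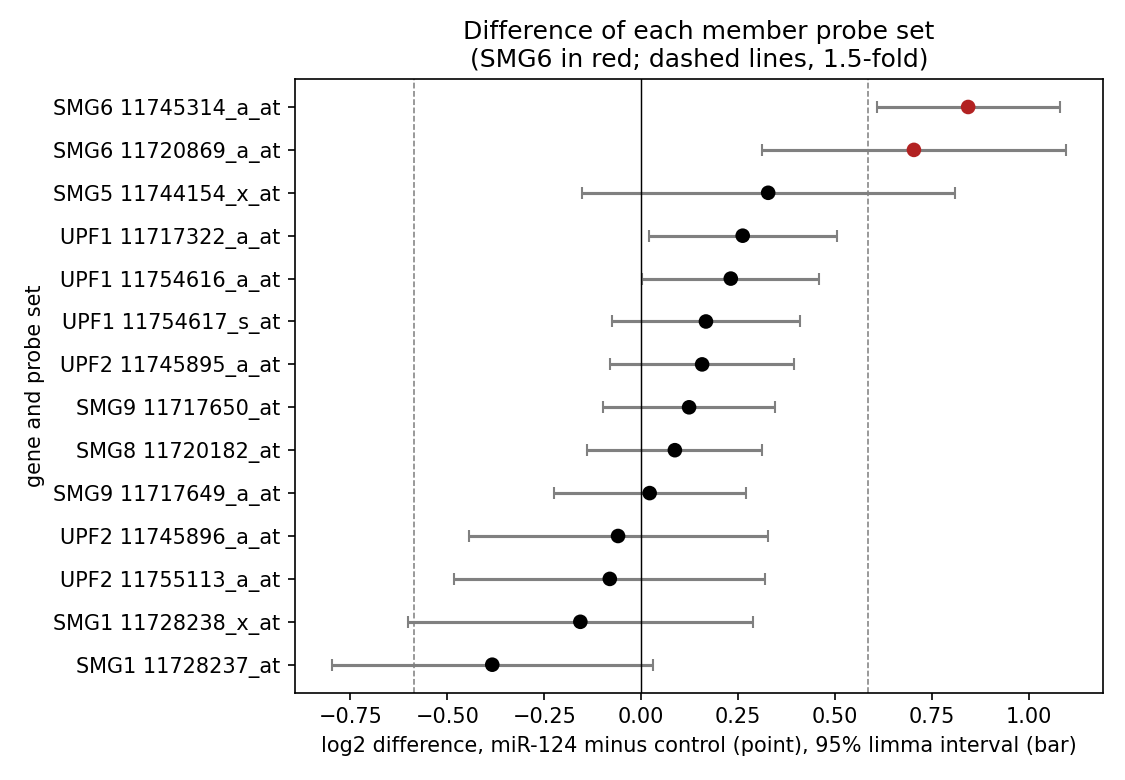
Log2 difference, miR-124 minus control (x axis), of each member probe set (y axis, in order of the difference) with its unadjusted 95% limma interval as a bar and dashed lines at 1.5-fold. The SMG6 points in red, at 0.70 and 0.84, lie beyond the line, and the other 12 lie between -0.38 and 0.33.

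Of the 14 member probe sets, 2 passed the study's threshold, both of SMG6 and both as higher, where 0.185% of all probe sets passed in either direction and 0.069% as higher. On the brightest probe set of each gene, 1 of 7 members passed, beside 0.153% of all genes. At an unadjusted p under 0.05 alone there were 4 of 14, the 2 of SMG6 and 2 of the 3 of UPF1, beside 4.73% of all probe sets. Those of UPF1 depended on the setting in limma. Both remained under it with array weights and with the array number as a block, 1 did under cyclic loess and under a trend and robust prior, and 0 did among probe sets above the median level or without any 1 of the arrays. Probe sets of SMG1 and SMG5 came under it elsewhere, the brighter of SMG1 with the block, and both of SMG1 and that of SMG5 without miR-124 replicate 1. No probe set of any gene reached a Benjamini-Hochberg adjusted p under 0.05 in limma, and the lowest adjusted p was 0.875. Both miR-124 arrays lay above both control arrays on 9 of the 14, beside 18.8% of all probe sets, and below both on 1, beside 15.9%. Because SMG6 was chosen on this contrast and probe sets of 1 gene share their target, nothing is read from these shares. Without SMG6, the other 12 probe sets had a median difference of 0.11, with a range of -0.38 to 0.33, while the median over all probe sets was 0.00. All 14 had a mean in control cells above the average of the background probe sets on each array. Their means over all arrays stood between the 58.3 and the 93.9 percentile of all probe sets.

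The member probe sets were also read within each array number. The gap between the 2 arrays of a condition exceeded the difference between the conditions on 5 of the 14 probe sets, none of them of SMG6. Of the 12 probe sets outside SMG6, 7 were higher in miR-124 cells within both array numbers and 3 were lower within both. The other 2, 1 each of SMG1 and SMG9, changed sign between the numbers. The matching shares over all probe sets were not counted, so nothing is read from these counts or from the 5 of 14. The part of the array number in these differences was not tested, since no source used here says what the number stands for.

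**Figure D3:**
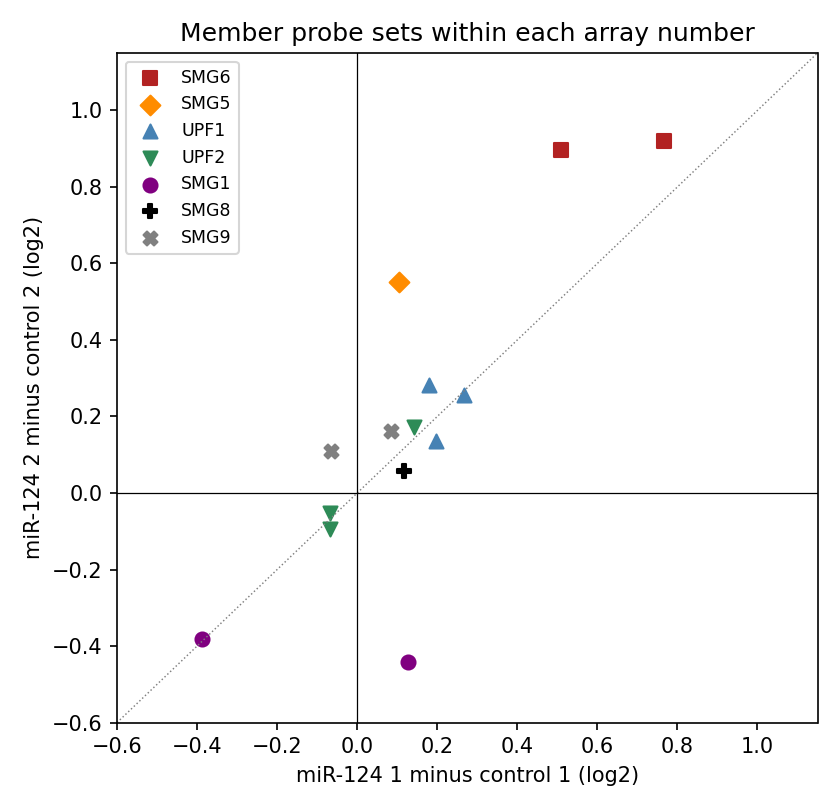
Difference between miR-124 and control within the arrays numbered 1 (x axis, log2) and within those numbered 2 (y axis, log2) for the 14 member probe sets, with a symbol for each gene and a dotted line of equal differences. The SMG6 squares are at 0.51 and 0.90 and at 0.77 and 0.92, apart from the other members, and SMG5 stands out on the y axis at 0.55.

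Genes that lie beside SMG6 on chromosome 17 were set beside it, as their order stands in the GRCh38.p14 gene table. The 3 nearest named genes on each side had 15 probe sets, with differences of -0.15 to 0.28. Of these, 0 passed the threshold, beside 0.185% of all probe sets. SRR, which encodes serine racemase, overlaps SMG6 in the table. On its brighter probe set it was at 9.90 and 9.93 in the miR-124 arrays, against 10.03 and 9.97 in the control arrays. Its dimmer probe set was higher in both miR-124 arrays, by 0.18. HIC1, a transcriptional repressor gene, overlaps SMG6 at its other end. On its brightest probe set it was at 6.82 and 6.71 in the miR-124 arrays, against 6.59 and 6.74 in the control arrays, which overlapped. Its other probe sets were higher in both miR-124 arrays, by 0.12 and 0.24. The other neighbours were TSR1, SGSM2, RTN4RL1 and RPA1, and the largest of the 15 differences, 0.28, was that of the brightest SGSM2 probe set. The array probes of SMG6 were higher, and those of the overlapping and adjacent genes stayed within 0.28 on the log2 scale. SMG6 was chosen for its difference and these genes were not, so this contrast is a description.

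The genes with the pattern closest to SMG6 over the 4 arrays were NIM1K, TNFRSF1B, LINC01588, CXCL9 and GBP1, by the Euclidean distance between values centred on each gene's mean, among genes above the median level. Their distances were 0.20, 0.25, 0.27, 0.27 and 0.30 in this order. NIM1K, the closest, was at 8.81 and 8.63 in the miR-124 arrays, against 8.32 and 7.75 in the control arrays. TNFRSF1B, a receptor of tumor necrosis factor, was at 9.60 and 9.60 in the miR-124 arrays, against 9.24 and 9.00 in the control arrays. Each was high in both miR-124 arrays and lowest in control 2, as SMG6 was, and none of the 5 is an NMD factor. With 4 arrays such a likeness is a description.

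The partners of the core factors were read from lists of 29 genes. On the brightest probe set, 15 of the 29 were higher and 14 lower in miR-124 cells, the median difference was 0.00 and 0 passed the study's threshold. Over all 18244 genes, 9450 were higher and 8792 lower, and 0.153% passed, which stands beside each gene list below. Beside that share, 0 of 29 says nothing particular about the partners. In limma at the gene level, 2 of the 29 had an unadjusted p under 0.05, beside 4.46% of all genes, and none reached an adjusted p under 0.05. Without miR-124 replicate 1, 1 of the partners passed the threshold, MAGOHB, where 1.86% of all genes passed in that fit.

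Of 7 genes of the exon junction complex, 4 were higher and 3 lower, with differences of -0.34 to 0.31 and a median of 0.00. CASC3, a core subunit of the complex, was at 10.93 and 11.13 in the miR-124 arrays, against 10.60 and 10.84 in the control arrays, a difference of 0.31 (95% interval -0.03 to 0.66). The other CASC3 probe sets differed the other way, by -0.05 with overlapping arrays and by -0.17 with none. MAGOHB, which encodes the near-identical copy of the subunit MAGOH, was at 9.58 and 8.75 in the miR-124 arrays, against 9.67 and 9.35 in the control arrays, and the interval of its difference was wide, at -1.15 to 0.46. EIF4A3, RBM8A and MAGOH, the other core subunits, had differences of -0.01, 0.00 and 0.05 on their brightest probe sets.

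Of 10 genes of translation termination and of the assembly of the UPF1 complex, 6 were higher and 4 lower, and their median difference was 0.06. The helicase gene DHX34 was at 9.78 and 10.10 in the miR-124 arrays, against 9.47 and 9.74 in the control arrays, a difference of 0.33 (95% interval -0.09 to 0.75). RUVBL2, an ATPase that takes part in the remodelling of the complex, was at 12.00 and 12.03 in the miR-124 arrays, against 11.65 and 11.79 in the control arrays, a difference of 0.30 (unadjusted p = 0.026 from limma, adjusted p = 0.886). Its arrays did not overlap between the conditions, and its fold change was 1.23.

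Of 12 decay genes, 5 were higher and 7 lower, and their median difference was -0.01. EDC4, the scaffold of the decapping complex, was at 10.12 and 10.40 in the miR-124 arrays, against 9.73 and 9.95 in the control arrays. The difference was 0.42 (unadjusted p = 0.034 from limma, adjusted p = 0.886). The other EDC4 probe sets were also higher in both miR-124 arrays, by 0.21 and 0.50. DCP2, the decapping enzyme, was at 10.29 and 10.32 in the miR-124 arrays, against 10.48 and 10.53 in the control arrays on its brightest probe set, a difference of -0.20 (95% interval -0.42 to 0.01). The other 4 DCP2 probe sets differed by -0.43, -0.39, 0.07 and 0.20. XRN1, the exonuclease that degrades the downstream fragment after a cut by SMG6, had a difference of -0.19 on its brightest probe set and of -0.18, 0.02 and 0.08 on the others, and PPP2CA, the catalytic subunit of a phosphatase that acts on UPF1, one of -0.15 on its brightest. Neither passed the threshold.

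Genes with at least 1 transcript known as an NMD substrate, here called NMD-sensitive transcripts for short, were read from a list of 27, of which 25 had a probe set. In miR-124 cells 15 of these were higher and 10 lower, and the median difference was 0.06 beside 0.01 over all genes, and 1 passed the threshold, beside 0.153% of all genes. It was MAP3K14, the kinase gene of the noncanonical NF-κB pathway, at 10.41 and 10.89 in the miR-124 arrays, against 9.84 and 9.99 in the control arrays (difference 0.73, unadjusted p = 0.013 from limma, adjusted p = 0.886). MAP3K14 was known to be higher in these arrays when the list was written, so its place in the list is no independent evidence. It did not pass without control replicate 1 or without miR-124 replicate 2. Without miR-124 replicate 1, ATF3 passed beside it, where 1.86% of all genes passed in that fit. On the brightest probe set of each gene, the other listed genes lay between -0.27 and 0.24. The lowest was the snoRNA host transcript SNHG1, and the highest was ARHGEF18, a gene of a guanine nucleotide exchange factor. Dimmer probe sets went further both ways, to -0.34 for SRSF2 and 0.56 for ATF3, each with overlapping arrays. No member of the list reached an adjusted p under 0.05. Isoforms were not separated, so a listed signal may come in part or mainly from an isoform that is not a substrate. The counts and the median of the list therefore describe gene signals, and the activity of NMD was not tested.

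**Figure D4:**
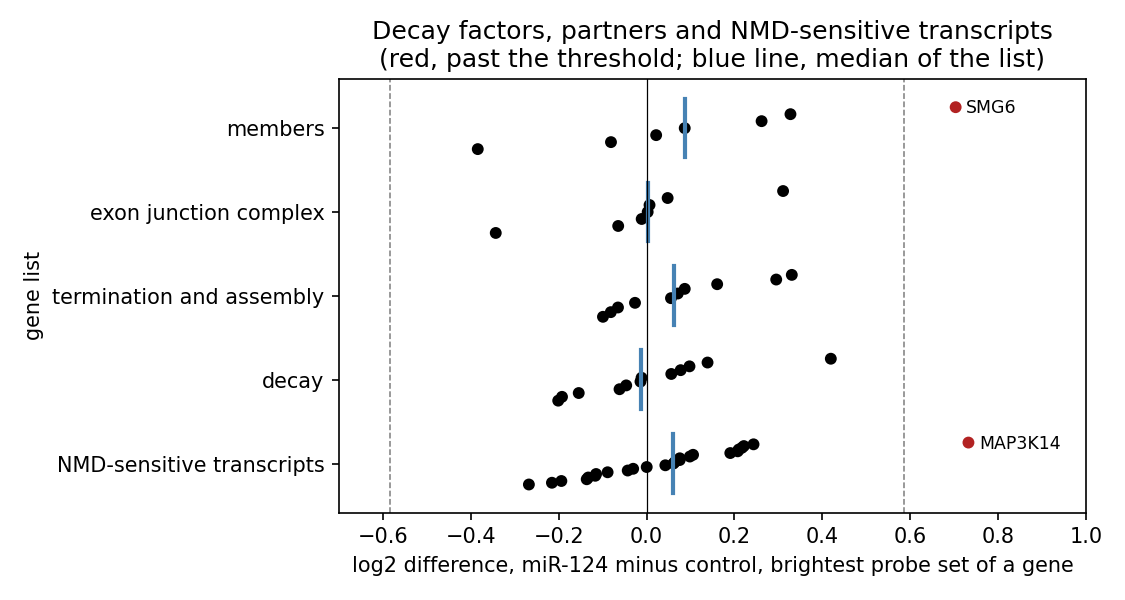
Log2 difference, miR-124 minus control (x axis), on the brightest probe set of each gene in 5 gene lists (y axis), with the median of each list as a blue line, genes past the threshold in red and dashed lines at 1.5-fold. SMG6 at 0.70 and MAP3K14 at 0.73 are the 2 genes past the threshold, and the list medians lie between -0.01 and 0.09.

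The order of the members by their difference on the brightest probe set was SMG6 at 0.70, SMG5 at 0.33, UPF1 at 0.26, SMG8 at 0.09, SMG9 at 0.02, UPF2 at -0.08 and SMG1 at -0.38. The 95% intervals of neighbouring members in this order overlapped, those of SMG6 (0.31 to 1.10) and SMG5 (-0.15 to 0.81) included. The interval of the dimmer SMG6 probe set, 0.61 to 1.08, began above the upper ends of those of UPF1, UPF2, SMG1, SMG8 and SMG9. It began below that of SMG5, and the interval of the brighter SMG6 probe set overlapped that of the brightest UPF1 probe set. SMG6 was chosen for its difference in these arrays, so the place of its intervals is a description and no test. Without control replicate 2, the difference of SMG6 on the brighter probe set was 0.52 and did not pass the threshold, and that on the dimmer was 0.80 and passed.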

How the data were processed

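RNA of 2 miR-124 and 2 control SeAx arrays was analysed. The authors deposited log2 values, which they had background-corrected, quantile-normalized and summarized by RMA per probe set; the submitters' notes name RMA and limma without versions. Quantile normalization hides a change of total RNA, so a difference is relative to the other probes of an array. Of 49495 probe sets, 202 array controls were left out. Of the others, 45278 had 1 symbol, 1333 several (these name no gene) and 2682 none. Symbols were checked by gene identifier and 0 changed.

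Differences were fitted over the whole table with limma 3.58.1 in R 4.3.3 (lmFit, eBayes, condition as the only term; 2 residual degrees of freedom, 2.56 from the prior). p-values were adjusted by Benjamini-Hochberg over all probe sets, or over all genes with the brightest probe set for each. Intervals are limma's at 95%, unadjusted. The code was tested on simulated data.

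The members and lists were chosen with earlier results of these data known. Lists were written from textbook knowledge, and 1 gene of them is not reported here. The genes named are the members, list genes past the threshold or otherwise the 2 with the largest difference, 3 neighbours of SMG6 on each side, and the 5 genes nearest to its pattern; further list genes are named as examples chosen after their values were seen. Tried besides were a replicate block on the array number, every fit without 1 of the arrays, probe sets above the median level, cyclic loess, array weights, a trend and robust prior, and the mean of a gene's probe sets.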

Additional observations from a re-analysis of the deposited data

How the results depend on the processing

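SMG6 passed the threshold on its dimmer probe set in 9 of 9 alternatives and on its brighter one in 8 of 9, and no other member probe set passed in any. SMG6 was chosen for its difference in these same arrays, and every alternative refits them or a part of them. This tally is therefore a description and supports nothing. Leaving out 1 array in turn, the SMG6 difference was 0.52 to 0.89 on the brighter and 0.80 to 0.89 on the dimmer probe set, that of SMG5 0.08 to 0.57 and that of SMG1, on its brighter probe set, -0.53 to -0.24, while those of UPF2 (-0.22 to 0.06) and SMG9 (-0.04 to 0.09) on their brightest probe sets changed sign. With 1 array left out, the count of member probe sets past the threshold was 1 to 2, of member genes 0 to 1, of partner genes 0 to 1 and of NMD-sensitive transcripts 0 to 2. The lower counts of members came without control replicate 2. The partner past it was MAGOHB and the second NMD-sensitive transcript ATF3, both without miR-124 replicate 1, and there were 0 NMD-sensitive transcripts without control replicate 1 or miR-124 replicate 2. The share of all genes past the threshold was also larger in each of these fits than with condition as the only term on every array. It was largest without miR-124 replicate 1, the fit in which MAGOHB and ATF3 passed. Each of these fits leaves 1 array in a condition, so nothing is read from these counts. The causes were not tested. Over all 18244 genes, 28 passed (0.153%), against 19 to 49 in the alternatives that kept every array and tested every gene. Among the 9122 genes above the median level, 17 passed (0.186%).

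With a replicate block for the array number, 2 member probe sets passed, and 49 genes in all. No source says that the number pairs the arrays. The gap between the arrays numbered 2 and 1 correlated at 0.64 between the conditions over probe sets, which are not independent. With 2 arrays a condition and no detection call, differences near those between arrays of 1 condition could not be resolved.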
